A study of Mus musculus with 24 samples.

Results

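The Hippo pathway and its output were followed in pooled mouse blastocysts through 10 genes: Nf2, Amotl1, Amotl2, Lats1, Lats2, Yap1, Wwtr1, Vgll4, Ctgf (current symbol Ccn2) and Cyr61 (current symbol Ccn1). The genes were chosen by name, as every probe that carried one of these 10 symbols, which gave 18 of the 56605 probes on the array. The condition tests below cover the members that passed the filter on dim probes, 9 of 18399 genes tested; Amotl1 did not pass. The samples were 24 pools of frozen expanded blastocysts, 4 pools in each of 6 conditions that the labels give only as the codes HC1, HC2, HC3, HC4, HC5 and HC6. A pool held 15 blastocysts, or 20 in HC6. The series title names bisphenol A and membrane estrogen receptor activation, but neither the agent, dose and exposure behind a code nor a control is given in the sources used here, and the strain and sex of the embryos are also not given. Each condition was therefore set against the other 5. Nothing in the labels says that the 4 pools of a condition came from separate experiments, so p-values measure only the spread between these pools. No difference between conditions passed the test for any member. Nf2 varied together with Yap1, Lats1 and Wwtr1 between pools of one condition.

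The pathway works as a kinase relay that keeps transcriptional co-activators out of the nucleus. NF2 (merlin) and the angiomotins hold the relay at the cell cortex and junctions, the kinases LATS1 and LATS2 phosphorylate YAP (Yap1) and TAZ (Wwtr1), and the phosphorylated proteins stay in the cytoplasm; unphosphorylated YAP and TAZ bind TEAD factors and switch on targets such as Ctgf and Cyr61. VGLL4 competes with YAP for TEAD. In the mouse blastocyst the relay is active in inside cells, which form the inner cell mass, and inactive in polarised outside cells, where nuclear YAP and TEAD4 turn on Cdx2 and Gata3 in the trophectoderm. Much of this control acts on protein phosphorylation and location, which an RNA array does not read.

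Probes of one member in different places differed in detection, and 3 of the less detected probes are printed. They are 60-base probes, written 5′ to 3′ in the sense of the transcript, with positions in the mouse build mm9 from the file headers. The Nf2 probe maps to the minus strand of chr11:4716125-4720386, a stretch of 4262 bases, so it covers separate stretches of the genome, as a probe across a splice junction does. The Lats1 probe lies on the plus strand of chr10:7432671-7432730, and the Vgll4 probe on the minus strand of chr6:114871350-114871409.
Nf2 junction probe, 11 of 24 arrays: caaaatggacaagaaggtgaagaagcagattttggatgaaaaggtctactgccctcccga
Lats1 second probe, 8 of 24 arrays: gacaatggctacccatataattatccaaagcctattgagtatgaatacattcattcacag
Vgll4 second probe, 0 of 24 arrays: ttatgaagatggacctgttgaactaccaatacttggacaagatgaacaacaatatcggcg
The array count beside each is the number of arrays on which the probe was well above background. Each of these 3 belongs to a gene with another probe that was above background on 24 arrays, or on 21 for Lats1.

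The bases before the start site were read for Cyr61 and Amotl2 and were searched for the TEAD-binding motif GGAATG on both strands (reverse complement CATTCC). The 2 genes were picked for their correlation over 24 pools (Pearson r = 0.53), which passed in 8 of 24 repeats without 1 pool. Their rank correlation did not pass (permutation adjusted p = 0.196). Sequences are from RefSeq, build GRCm38.p6, and hold the 250 bases before the start, 5′ to 3′ in the direction of the gene, with the motif in capitals. The Cyr61 stretch is chr3:145649986-145650235 on the minus strand and the Amotl2 stretch is chr9:102717554-102717803 on the plus strand.
Cyr61 promoter: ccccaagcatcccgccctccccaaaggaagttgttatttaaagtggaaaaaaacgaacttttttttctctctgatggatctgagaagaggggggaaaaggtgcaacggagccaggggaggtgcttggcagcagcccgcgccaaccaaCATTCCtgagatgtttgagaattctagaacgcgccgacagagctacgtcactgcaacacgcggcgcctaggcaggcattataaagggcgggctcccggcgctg
Amotl2 promoter: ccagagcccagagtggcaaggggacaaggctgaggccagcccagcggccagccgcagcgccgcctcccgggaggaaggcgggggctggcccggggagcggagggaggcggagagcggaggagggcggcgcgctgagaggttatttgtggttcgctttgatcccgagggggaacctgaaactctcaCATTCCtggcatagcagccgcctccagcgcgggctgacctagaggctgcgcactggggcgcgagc
Counted from the start site, with the base before it as -1, the motif letters began at -103 in Cyr61 and at -65 in Amotl2. Of the 9 members with a promoter in the table, 5 held the motif: Yap1, Wwtr1, Amotl2, Vgll4 and Cyr61. Among all 32851 promoters of the same length 12.6% held it. That share counts promoters, whereas a member counted when any of its promoters held the motif, and Wwtr1, Nf2 and Lats2 have several. A match is a description of letters and not a binding site.

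Detection of the 18 probes was uneven within genes. Yap1 had 2 probes, both well above background on 24 of 24 arrays. The Lats2 probes were above background on 24, 24 and 14 arrays, those of Lats1 on 21, 8 and 0, and those of Nf2 on 24, 18 and 11. Vgll4 had one probe at 24 and one at 0, with 59784 bases between them. Wwtr1, Amotl2, Ctgf and Cyr61 had 1 probe each, above background on 24 arrays. The only probe of Amotl1, an angiomotin family member, was above background on 0 of 24 arrays, so its level has only an upper bound and no difference between conditions can be given.

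**Figure D1:**
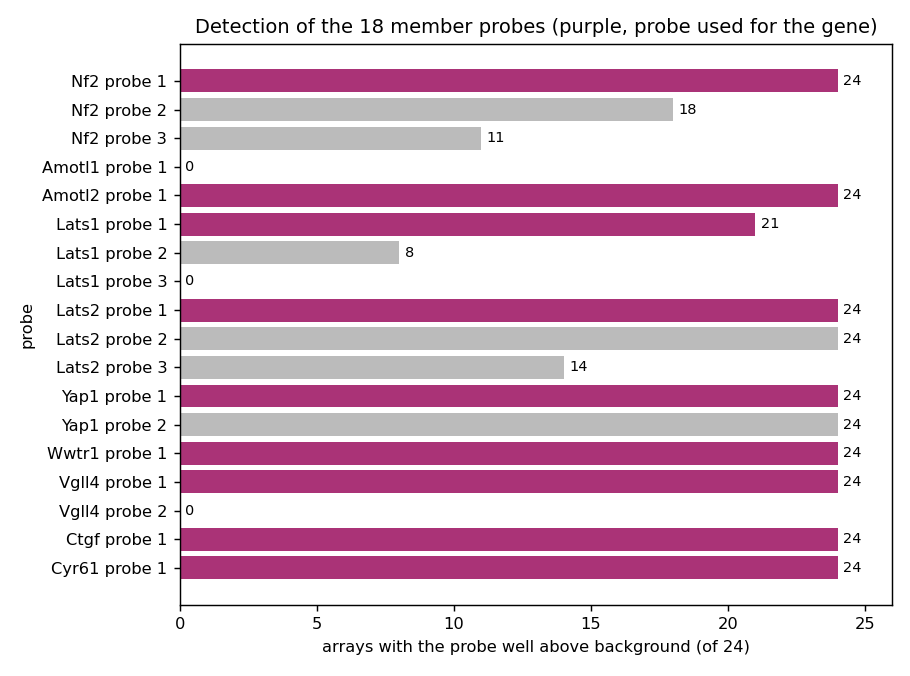
Number of arrays, of 24, on which each of the 18 probes was well above background, with genes ordered by role and the probe used for a gene in purple. Amotl1, Lats1 probe 3 and Vgll4 probe 2 stand at 0, and 9 genes have a probe that was detected on 21 or 24 arrays.

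Probes of one gene followed each other weakly or not at all between pools. The 2 Yap1 probes lie 65004 bases apart and correlated at r = -0.29 over 24 pools. The Lats2 probes gave r of -0.23, -0.20 and 0.00, and the brighter Nf2 probe gave 0.19 with either of the other 2. The 2 detected Lats1 probes reached 0.45. These values are descriptions across pools that share their arrays. Each gene is represented below by its brightest kept probe, so a value stands for that probe's stretch of the transcript and not for every isoform.

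Levels are given as the log2 signal minus the array's 75th percentile, on which 0 marks a signal equal to that percentile. A level of one probe cannot be set against that of another. The 75th percentile of the signal itself ran between 65.9 and 181 intensity units over the 24 arrays, 38.6% to 49.7% of spots were well above background, and no spot was saturated. Pool 4 of HC5 was the dimmest array and had the lowest median correlation with the others, 0.963, against a highest of 0.980. Trophectoderm markers were present as the tissue label says: Krt8, Krt18, Cdx2 and Gata3 were above background on 24 of 24 arrays, as were 12 of 13 inner cell mass markers and 12 of 12 primitive endoderm markers. Of 12 cumulus and granulosa markers 3 passed the filter: Foxl2 and Amhr2, above background on 24 of 24 arrays, and Has2, on 9. Of 10 blood and fibroblast markers 5 were tested, with Ptprc and Cd68 above background on 24 of 24 arrays. Where a gene differs between such pools, fewer cells of a type and less RNA per cell cannot be told apart.

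Over the conditions none of the 9 members was called by the moderated F-test (limma, Benjamini-Hochberg over 18399 genes, adjusted p = 0.9998 for each). The same test called 0 of 18399 genes, a background of 0%. At an unadjusted p under 0.05 it took 385 genes, 2.09%, and 1 of the 9 members, Cyr61. Of 54 member contrasts, each a condition against the other 5, 3 had an unadjusted p under 0.05 (Cyr61 in HC1 and in HC5, Lats2 in HC4), against 2.89% of all 110394 contrasts. The smallest adjusted p of any member contrast was 0.874, and 0 of 135 member pairs of conditions were called, against 0% of all. At an unadjusted p under 0.05 there were 6 member pairs, 4 of Cyr61 and 1 each of Lats2 and Vgll4, where 2.84% of all pairs lay. The bound of the 95% interval farthest from 0 was between 0.37 (Amotl2) and 0.93 (Ctgf) over the 54 contrasts, so a shift of 1 log2 unit, in either direction, lay outside each of these intervals. That does not hold for pairs of conditions, where the farthest bound was 1.28 for Ctgf and 1.12 for Cyr61. For the other members it was 0.78 or less.

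The spread of the members was close to that of all genes. Their median SD over 24 pools was 0.275 log2, against 0.273 over all genes tested, and the median SD of their condition means was 0.104 against 0.116. Ctgf was the most variable member, with an SD of 0.55 and a range of 7.46-fold, and Vgll4 the least, with 0.19. In the order of condition means, neighbouring conditions were closer than the pooled SD within conditions for every member, with 1 exception, the step between HC2 and HC1 in Cyr61 (0.29 against an SD of 0.26).

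**Figure D2:**
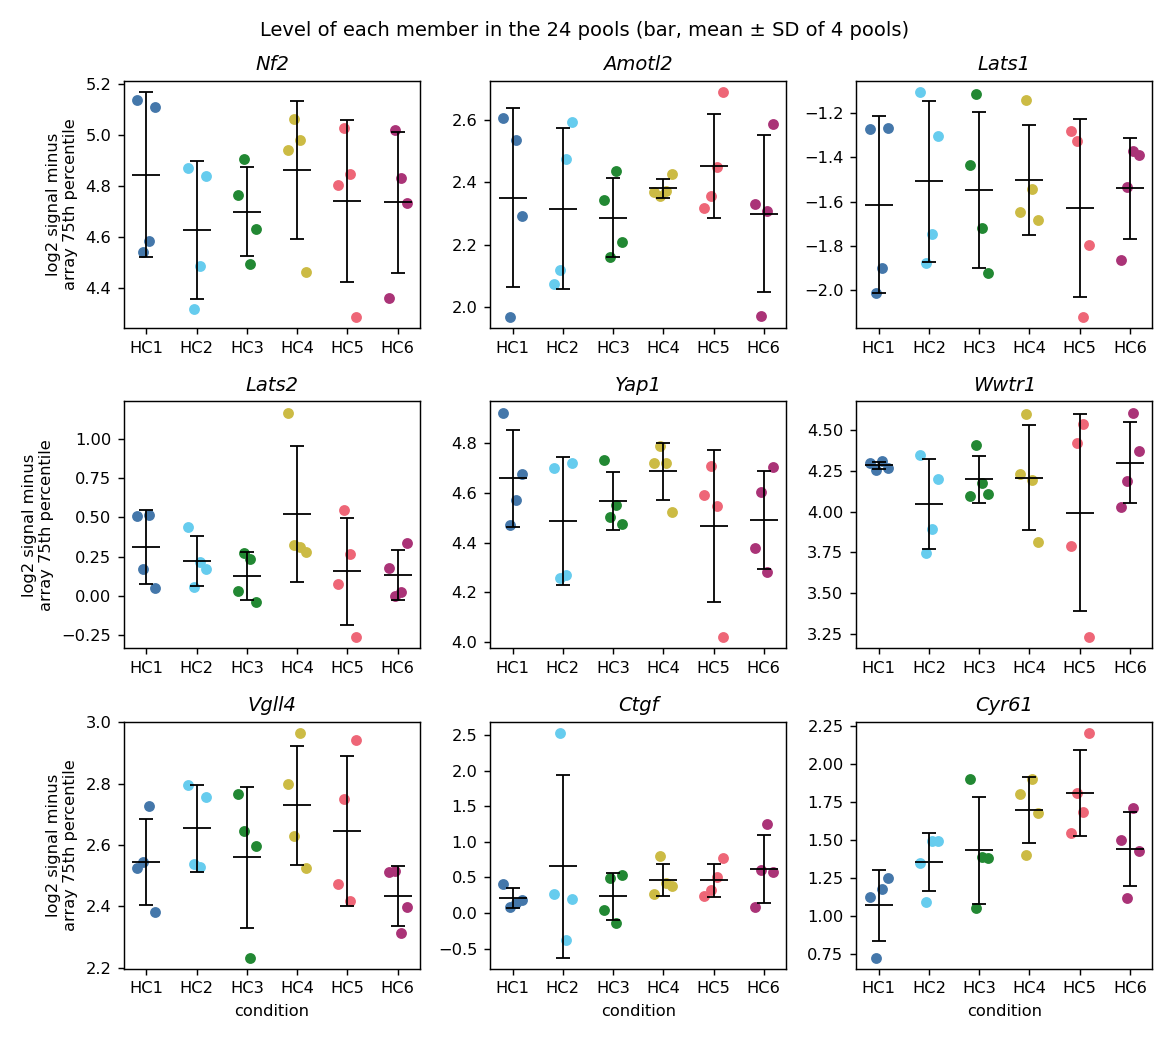
Level of the 9 tested members in each of the 24 pools by condition, as log2 signal minus the array's 75th percentile, with black bars for the mean ± SD of 4 pools. Most conditions overlap for every gene; the 4 HC1 pools lie low for Cyr61, 1 HC2 pool stands high for Ctgf and 1 HC4 pool stands high for Lats2.

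Nf2, the cortical scaffold that recruits the LATS kinases, averaged 4.75 ± 0.26 (SD, n = 24). Its condition of smallest p was HC2, where the pools stood at 4.87, 4.32, 4.49 and 4.84, against a lowest of 4.29, a median of 4.82 and a highest of 5.14 in the other 20 pools. In HC2, 2 pools were low and the other 2 lay close to the median of the rest, and the groups overlapped. HC2 averaged 4.63 ± 0.27 (n = 4) and the other pools 4.78 ± 0.26 (n = 20), a difference of -0.15 [95% interval -0.46 to 0.16] that did not pass the test. Without HC2 replicate 2 it was -0.04, so 1 pool made up most of it.

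Amotl2, an angiomotin that binds YAP at junctions and is itself a YAP target, averaged 2.35 ± 0.19 (SD, n = 24). Its HC5 pools stood at 2.32, 2.36, 2.45 and 2.69, against 1.97, 2.35 and 2.61 as the lowest, median and highest of the other 20. The highest pool of all 24 was HC5 replicate 4, and the groups overlapped. The difference of HC5 from the other conditions was 0.13 [-0.12 to 0.37] and did not pass; without HC5 replicate 4 it was 0.05. In HC4 the 4 pools lay between 2.36 and 2.43, the narrowest of the 6 conditions for this gene, with an SD of 0.03.

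Lats1, one of the kinases that phosphorylate YAP, was above background on 21 arrays and averaged -1.56 ± 0.30 (SD, n = 24). In HC5 the pools stood at -1.28, -1.32, -2.12 and -1.79, against -2.01, -1.54 and -1.11 as the lowest, median and highest of the other 20. HC5 differed by -0.09 [-0.46 to 0.29], which did not pass and changed sign to 0.08 without HC5 replicate 3. The 6 condition means lay within 0.13 of each other, and within every condition the pools were spread more widely than that.

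Lats2, the second LATS kinase and also a YAP target, averaged 0.25 ± 0.28 (SD, n = 24). Its HC4 pools stood at 1.16, 0.32, 0.31 and 0.28, against -0.26, 0.18 and 0.54 in the other 20. One HC4 pool lay above all 23 others, while the other 3 lay inside the range of the rest. HC4 averaged 0.52 ± 0.43 and the other pools 0.19 ± 0.21, a difference of 0.33 [0.03 to 0.63] that was not called after adjustment (limma, adjusted p = 0.998). Its unadjusted p was under 0.05, as for 1.88% of genes in HC4. Without HC4 replicate 1 it was 0.11. The other 2 Lats2 probes had their smallest p elsewhere, in HC5 and HC6, with adjusted p of 0.821 and 0.990 in the fit over 27078 probes. On both of them HC4 replicate 1 was the lowest HC4 pool.

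Yap1, the co-activator, averaged 4.56 ± 0.21 (SD, n = 24). Its HC4 pools stood at 4.72, 4.79, 4.72 and 4.52, against 4.02, 4.56 and 4.92 as the lowest, median and highest of the other 20. Of the HC4 pools 3 lay above that median and the groups overlapped. The difference was 0.15 [-0.09 to 0.40] and did not pass. The second Yap1 probe, in another part of the gene, had its smallest p in HC5 instead, with a difference of 0.20.

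Wwtr1, which encodes the YAP paralog TAZ, averaged 4.17 ± 0.31 (SD, n = 24). Its HC5 pools stood at 3.79, 4.42, 4.54 and 3.23, against 3.75, 4.22 and 4.61 in the other 20, so HC5 held both the lowest pool of all and the third highest. The difference of -0.21 [-0.57 to 0.15] did not pass and was 0.04, of opposite sign, without HC5 replicate 4. The HC1 pools were close together, at 4.30, 4.26, 4.31 and 4.27, with an SD of 0.02.

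Vgll4, the competitor of YAP for TEAD, averaged 2.60 ± 0.19 (SD, n = 24) on its detected probe. Its HC6 pools stood at 2.51, 2.52, 2.31 and 2.40, against 2.23, 2.61 and 2.97 in the other 20. All 4 lay below the median of the other pools, and the groups overlapped. HC6 averaged 2.43 ± 0.10 and the other pools 2.63 ± 0.19, a difference of -0.19 [-0.41 to 0.02] that did not pass. HC6 pools also held 20 blastocysts in place of 15, and pool size and condition cannot be told apart there.

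Cyr61, a secreted matrix protein and direct YAP target, averaged 1.47 ± 0.34 (SD, n = 24) and was the member with the widest differences between conditions relative to its spread. Its HC1 pools stood at 1.12, 0.72, 1.18 and 1.25, against 1.05, 1.496 and 2.20 as the lowest, median and highest of the other 20. All 4 HC1 pools lay below that median, and 1 of them lay below every other pool. HC1 averaged 1.07 ± 0.24 and the other pools 1.55 ± 0.30, a difference of -0.48 [-0.77 to -0.19] that was not called (limma, adjusted p = 0.9998). At the other end, the HC5 pools stood at 1.55, 1.81, 1.68 and 2.20, all above the median of 1.39 of the other 20, and averaged 1.81 ± 0.28 against 1.40 ± 0.31, a difference of 0.41 [0.12 to 0.71] with an adjusted p of 0.874.

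The order of the Cyr61 means ran HC5, HC4, HC6, HC3, HC2 and HC1, and the pair HC1 minus HC5 differed by -0.74 [-1.12 to -0.36], with no overlap between their pools. That pair was not called (limma, adjusted p = 0.99999 over genes and pairs). The highest Cyr61 pool of all was HC5 replicate 4, the dimmest array. No value without that pool is given here for HC5 or for the pair. The HC1 difference kept its sign in each of the 24 fits that left out 1 pool, between -0.54 and -0.36, and in the 16 other settings, between -0.67 and -0.29, with adjusted p of 0.867 or more. Background shares for these single conditions were 3.21% of genes at an unadjusted p under 0.05 in HC1 and 5.48% in HC5, the highest of the 6.

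Ctgf, the other secreted target, averaged 0.44 ± 0.55 (SD, n = 24). The HC2 pools stood at 0.26, 2.53, -0.37 and 0.20, so that HC2 held both the highest and the lowest pool of all 24. Without HC2 replicate 2 the SD over pools was 0.34. In HC1, its condition of smallest p, the pools stood at 0.41, 0.09, 0.15 and 0.18, against -0.37, 0.40 and 2.53 as the lowest, median and highest of the other 20. The difference of -0.28 [-0.93 to 0.36] did not pass, and was -0.16 without HC2 replicate 2. The correlation of Ctgf with Cyr61 between pools did not pass (r = -0.07, rho = -0.01, permutation adjusted p = 0.936, n = 24).

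**Figure D3:**
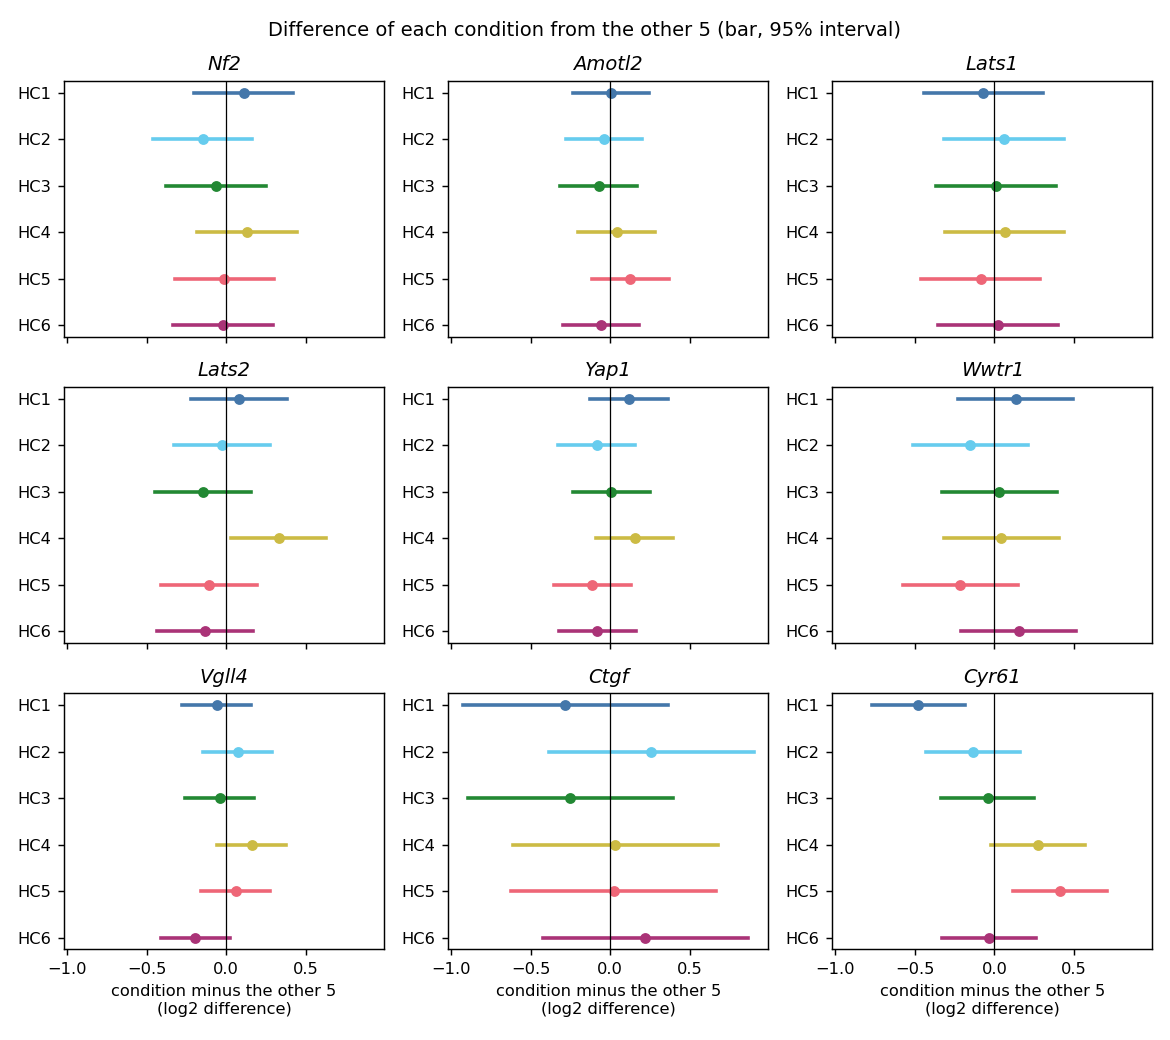
Difference of each condition from the other 5 for the 9 members, in log2 units, with the 95% interval as a bar. Intervals leave out 0 for Cyr61 in HC1 and HC5 and for Lats2 in HC4, before any adjustment over the 18399 genes.

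HC4 was the one condition in which all 9 members had a mean above that of the other 5, with a median difference of 0.13, while 65.1% of all genes tested were also higher there, with a median of 0.05. The other conditions had 3 to 5 of 9 members higher. In HC4, 18 of 22 upstream and kinase genes, 16 of 20 angiomotin, polarity and junction genes, 9 of 9 TEAD factors and co-factors and 17 of 23 YAP and TEAD targets had a higher mean. The lineage genes downstream of YAP (6 of 9, median 0.04) and the trophectoderm markers (9 of 14, median 0.04) stood near the share and median of all genes. Markers of the inner cell mass (13 of 13) and of the primitive endoderm (12 of 12) were also higher in HC4, and the score of the inner cell mass markers ran between -0.23 and 0.30 in HC4 pools against -0.28 and 0.25 in the rest; their part in the result was not tested. The member count was 6 of 9 without HC4 replicate 2, 6 with normexp and quantile normalization or in the authors' deposited table, and 7, 7 and 4 within the 3 slides, which hold 1, 1 and 2 HC4 pools. The count was chosen after its values were seen.

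Between pools, some of the upstream and effector genes varied together. Of 36 correlations between members over 24 pools, 7 passed by Pearson r (permutation p, 100000 resamples, Benjamini-Hochberg over the 36), and all 7 were positive. No share over all gene pairs was computed for this count. For Yap1 with Wwtr1, Lats2 and Lats1, which are among the 7, 14.6% to 19.5% of all genes reached the same r. Nf2 correlated with Yap1 at r = 0.77 and rho = 0.74 (adjusted p = 0.0011), with Wwtr1 at r = 0.67 and rho = 0.64 (0.0034), and with Lats1 at r = 0.67 and rho = 0.66 (0.0047). Those adjusted p belong to r, and by rho the 3 pairs also passed (permutation adjusted p = 0.0011, 0.0131 and 0.0122). By r these 3 passed in each of the 24 repeats that left out 1 pool, and held at 0.69, 0.52 and 0.77 without the 2 extreme pools. Within the 3 slides Nf2 and Yap1 gave r of 0.97, 0.57 and 0.81, Nf2 and Wwtr1 0.57, 0.65 and 0.80, and Nf2 and Lats1 0.76, 0.81 and 0.44. As deviations from condition means they gave 0.77, 0.69 and 0.73, so the relation was present between pools of one condition. All these values rest on the brightest kept probe of each gene. The second Yap1 probe gave r = -0.29 with the one used, and other probes were not tested against other members.

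The other 4 pairs were weaker. Yap1 correlated with Wwtr1 (r = 0.58, rho = 0.38, adjusted p = 0.0280), with Lats2 (r = 0.55, rho = 0.50, 0.0447) and with Lats1 (r = 0.53, rho = 0.57, 0.0447), and Amotl2 with Cyr61 (r = 0.53, rho = 0.43, 0.0447). These adjusted p belong to r. By rho the permutation adjusted p was 0.272, 0.108, 0.0336 and 0.196 in the same order, so only Yap1 with Lats1 passed. In repeats without 1 pool the 4 pairs passed by r 20, 8, 7 and 8 times of 24. Without HC5 replicate 4 Yap1 gave r = 0.35 with Wwtr1 and 0.43 with Lats2. Without HC1 replicate 2 Amotl2 and Cyr61 stood at 0.41. Yap1 did not pass with either target: r was -0.32 with Ctgf and -0.14 with Cyr61. For Ctgf, which had 1 pool far above the rest, r and rho differed. Its rho was -0.10 with Yap1, 0.23 with Wwtr1, 0.17 with Nf2 and 0.08 with Lats1, and none of these passed.

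Such correlations were common on these arrays. Of all genes tested, 2.16% followed Yap1 at least as closely as Nf2 did, 5.64% followed Wwtr1 as closely, and 3.16% followed Lats1. For the pair of Amotl2 and Cyr61 the share was 1.46%. By contrast 14.6% of genes followed Yap1 as closely as Wwtr1 did, 17.7% as closely as Lats2 did and 19.5% as closely as Lats1 did. Whether 7 of 36 is more than other sets of genes give was not tested.

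**Figure D4:**
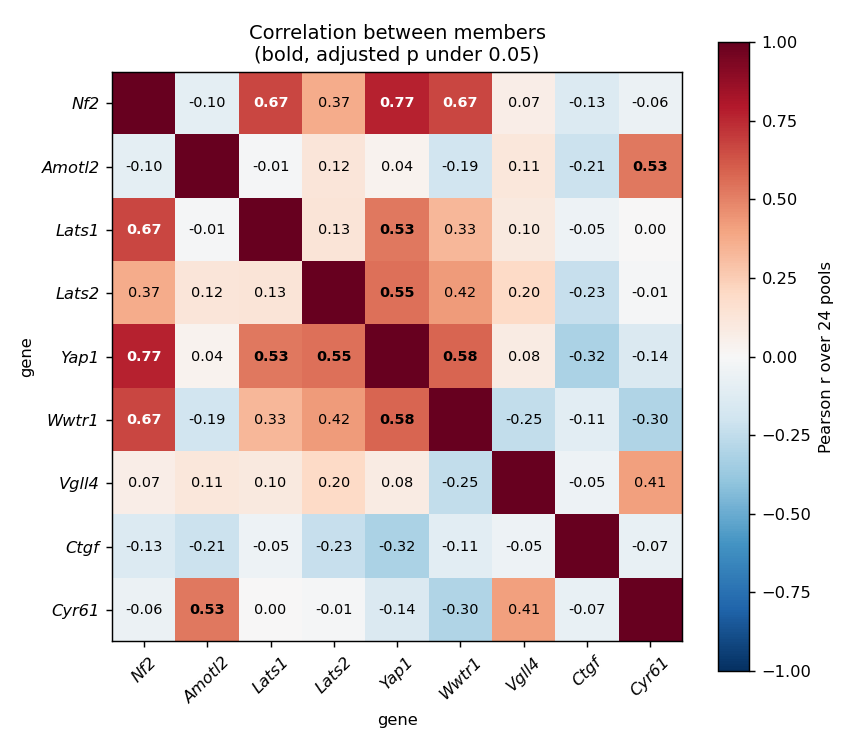
Pearson r between the 9 members over 24 pools, from blue for -1 to red for 1, with the 7 pairs of adjusted p under 0.05 in bold. Nf2, Lats1, Yap1 and Wwtr1 form a block of positive values up to 0.77, while Ctgf has no r above 0 and Cyr61 pairs with Amotl2. The rho of Ctgf with the genes of that block had both signs.

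Nf2, Lats1 and Yap1 were correlated with a score of the inner cell mass markers, though not with every marker in it. A score for each pool was the mean log2 deviation of 13 inner cell mass and epiblast markers, and likewise for 14 trophectoderm markers. Markers that vary more weigh more in such a mean. The SD over pools was 0.79 for Tdgf1 and 0.72 for Prdm14, against a median of 0.213 over the inner cell mass markers. In the trophectoderm list it was 0.83 for Cyp11a1, above background on 17 arrays, and 0.68 for Ascl2, against a median of 0.218. Of 36 relations of the 9 members with these 2 scores and with 2 measures of array brightness, 4 passed. Nf2 followed the inner cell mass score at r = 0.86 and rho = 0.82 (permutation adjusted p = 0.0005), a value that 0.849% of genes reached, and Lats1 at r = 0.76 and rho = 0.70 (0.0005, 3.67% of genes). Yap1 followed the inner cell mass score at r = 0.64 (rho = 0.66, adjusted p = 0.0069, 9.54% of genes) and the trophectoderm score at r = 0.64 (rho = 0.70, 0.0069, 2.69% of genes). Wwtr1 and the inner cell mass score gave r = 0.52 with an adjusted p of 0.0573. No relation with brightness passed.

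The 4 relations held in each repeat without 1 pool. Without the 2 extreme pools r was 0.83 for Nf2, 0.74 for Lats1, 0.55 for Yap1 with the inner cell mass score and 0.65 for Yap1 with the trophectoderm score. Within slides Nf2 gave 0.87, 0.93 and 0.82, Lats1 0.77, 0.81 and 0.71, and Yap1 0.85, 0.32 and 0.68 with the inner cell mass score and 0.52, 0.74 and 0.73 with the trophectoderm score. As deviations from condition means they were 0.89, 0.80, 0.64 and 0.71.

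The pools were cut into a lower and an upper set at the widest gap of the inner cell mass score, between -0.03 and 0.06. That cut was chosen after the values were seen. The lower set held 11 pools and the upper 13, and every condition had pools in both. Within the sets Nf2 gave r = 0.67 in the 11 lower pools (permutation p = 0.0246) and 0.37 in the 13 upper pools (p = 0.2143). Lats1 gave 0.46 and -0.23. Its level ran between -2.12 and -1.30 in the lower set, with a median of -1.86. In the upper set it ran between -1.65 and -1.11, with a median of -1.32. Yap1 gave 0.60 and 0.09 with the inner cell mass score and 0.72 and 0.56 with the trophectoderm score. After adjustment over the 36 relations none passed within either set. A cut on the score narrows its range within each set, which can lower r by itself. These values therefore cannot show whether a relation lies within or between the sets.

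Single markers differed in how they followed these members. The r of Nf2 was 0.92 with Tfcp2l1, 0.83 with Prdm14, 0.79 with Tdgf1 and 0.70 with Esrrb, which are pluripotency genes. With Nanog it was 0.42, with Utf1 -0.09 and with Pou5f1, which encodes OCT4, -0.25. Lats1 gave 0.76 with Tfcp2l1 and 0.75 with Prdm14, but 0.07 with Nanog and -0.15 with Pou5f1. Yap1 gave 0.75 with Tfcp2l1 and 0.66 with Zfp42, but 0.23 with Nanog, 0.06 with Spp1, -0.07 with Utf1 and -0.52 with Pou5f1.

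Other probes of the same genes gave lower values. The brightest Nf2 probe followed the inner cell mass score at 0.86, and the other 2 at 0.25 (18 of 24 arrays) and 0.08 (11 of 24 arrays, printed above). The brighter Yap1 probe gave 0.64 and the second, detected on 24 of 24 arrays, -0.18. For Lats1 the brighter probe gave 0.76 and the second printed probe, detected on 8 arrays, 0.31. With the trophectoderm score the brighter Yap1 probe gave 0.64 and the second Yap1 probe -0.41, of opposite sign. The relations of Yap1 with both scores thus rest on 1 of its probes.

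**Figure D5:**
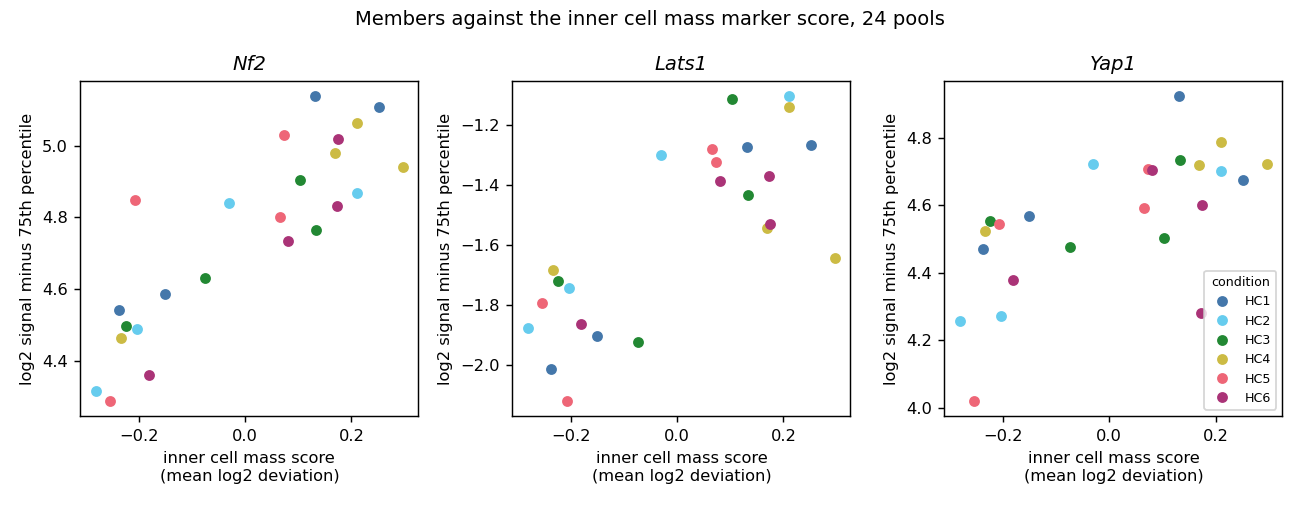
Level of Nf2, Lats1 and Yap1, as log2 signal minus the array's 75th percentile, against the mean log2 deviation of 13 inner cell mass markers, with 1 point for each of 24 pools coloured by condition. Nf2 rises along the score (r = 0.86), Lats1 levels of pools below and above the widest gap of the score overlap, and each condition has pools on both sides of that gap.

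The 3 genes most like each member over the 24 pools, among 12727 named genes, were different for every member. Nf2 was followed most closely by Bpnt2 (r = 0.93), the inner cell mass marker Tfcp2l1 (0.92) and Fbxo7 (0.91). Yap1 was followed by Zcchc2 (0.91), Rab14 (0.90) and Mapk1ip1l (0.90), and Wwtr1 by Rnf11 (0.90), Psmd14 (0.90) and Aqp9 (0.89). The closest to Lats1 were Mcee, Serbp1 and N4bp1 (0.86, 0.85 and 0.84), and to Lats2 Prr14l, Vdac2 and Ctbp2 (0.72, 0.72 and 0.71). Amotl2 was nearest to Tpm3 (0.84), a tropomyosin, Lrrc75a (0.81) and Anxa3 (0.81). Ctgf was nearest to Alyref2 (0.83), Pif1 (0.82) and Trp63 (0.81), Cyr61 to Syngr2 (0.81), Tcf20 (0.74) and Dusp8 (0.73), and Vgll4 to Eif3b (0.84), Adam15 (0.80) and Pfkm (0.79). These are the top values of a search through 12727 genes and are given with no p.

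The wider pathway gave no call between conditions either. Of 24 listed upstream and kinase genes 22 were tested and 0 called; Fat4 and Dchs1 did not pass the filter. The smallest p belonged to Taok2, an upstream kinase, with 0.34 ± 0.17 in HC5 and 0.06 ± 0.23 in the other pools, and to Frmd6, a FERM-domain regulator, with -1.33 ± 0.53 in HC5 and -0.82 ± 0.22 in the others. Next came Mob1b, a LATS co-activator, with 0.91 ± 0.36 in HC6 and 0.56 ± 0.18 in the others, and Taok3, with -0.53 ± 0.08 in HC1 and -0.23 ± 0.31 in the others. The core relay genes passed no test. Stk3 differed by 0.12 (HC4), Stk4 by -0.10 (HC5), the adaptor Sav1 by -0.12 (HC5) and Mob1a by -0.13 (HC5) in their conditions of smallest p, all with adjusted p of 0.887 or more.

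Of the angiomotin, polarity and junction genes 20 of 20 were tested and 0 called. Amot, the angiomotin that stands beside Amotl2 in the blastocyst, differed by 0.11 in HC4 and was above background on 24 arrays, where Amotl1 was on 0. Patj, a polarity scaffold, stood at 0.61 ± 0.26 in HC1 and 0.24 ± 0.28 in the others, Rock2, a cytoskeletal kinase, at 1.42 ± 0.18 in HC4 and 1.61 ± 0.10, Tjp1 (ZO-1) at 2.65 ± 0.30 in HC5 and 2.86 ± 0.10, and Llgl1 at 2.26 ± 0.17 in HC1 and 2.13 ± 0.14.

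Of 10 TEAD factors and co-factors 9 were tested and 0 called. Tead4, the TEAD factor needed for trophectoderm in mouse, differed by -0.11 in HC5. Smad2 stood at 1.58 ± 0.18 in HC5 and 1.82 ± 0.14 in the other pools, Tead2 at 3.31 ± 0.18 in HC5 and 3.07 ± 0.14, Tead3 at 2.01 ± 0.66 in HC6 and 2.35 ± 0.32, and Vgll3 at 2.81 ± 0.21 in HC6 and 3.03 ± 0.14.

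Of a list of 28 YAP and TEAD targets, which shares Lats2 with the members and Amot, Ajuba, Ptpn14 and Wwc1 with the lists above, 23 were tested and 0 called, and their median SD over pools was 0.343, against 0.273 over all genes. The smallest p belonged to Nuak2, with 0.02 ± 0.75 in HC5 and -0.63 ± 0.34 in the other pools, then Nt5e, with -0.06 ± 0.33 in HC6 and -0.46 ± 0.31, Gadd45a, with -0.87 ± 0.71 in HC2 and -1.33 ± 0.37, and Lats2, described above. The lineage genes downstream of YAP were tested in full, 9 of 9, and 0 were called. Krt18 and Krt8, keratins of the trophectoderm, differed by 0.22 and 0.19 in HC5, Cdx2 by -0.14 in HC3, Gata3 by 0.14 in HC1, Sox2 by -0.21 and Nanog by -0.20 in HC5, and Pou5f1 by -0.16 in HC1. Gata6, a primitive endoderm factor, differed by -0.26 in HC5.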

How the data were processed

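Total RNA from 24 pools of blastocysts (2 ng each) was amplified, labelled with Cy3 and hybridised to one-colour Agilent arrays, per the labels' protocols. Each scanner file, as deposited, gives the linear intensity of every spot from Agilent Feature Extraction 10.10.1.1, background-subtracted and detrended within an array but not normalized between arrays, per the file headers. A second table deposited by the authors holds log2 values of 27101 probes, with column medians between 7.00 and 7.01 and 443 missing values; each column correlated best with its own array (r between 0.834 and 0.888), and its exact normalization is not given in the sources used here. It was used as an alternative only.

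Control and outlier spots were left out, log2 of the processed signal was averaged per probe, and the array's 75th percentile was subtracted. Probes stayed in when 4 or more of the 24 arrays showed them well above background and every condition had 2 or more values (27078 of 56605 probes), and a gene took its brightest kept probe (18399 genes). limma 3.58.1 in R 4.3.3 fitted 6 condition means, with a moderated F-test, each condition against the other 5, and 15 pairs, with Benjamini-Hochberg adjustment at 0.05 over all genes. Correlations used 100000 permutations (Python 3.11.15, numpy 2.4.6, pandas 2.3.3, scipy 1.17.1), within slides exact permutations; figures used matplotlib 3.10.9. Both scripts were tested on simulated data. Amotl1 was never above background, which left 36 relations in each correlation family in place of the 45 and 40 planned. Probes with a name found in the RefSeq gene table numbered 41700, with 1518 more through an accession and 520 through a synonym, and 12867 kept the file's name.

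The members, gene lists and tests were chosen with earlier results of these data known. Named genes are the members, each at its condition of smallest p, up to 4 genes of smallest F-test p per pathway list with Amot, Tead4, Stk3, Stk4, Sav1 and Mob1a, the 3 genes most correlated with each member, and 6 lineage markers. Tfcp2l1, Prdm14, Tdgf1, Esrrb, Zfp42, Spp1, Utf1, Cyp11a1 and Ascl2 were named after their values were seen. Alternatives were other background, normalization, filter and probe rules, the authors' table, slide and replicate blocks, array weights, each slide alone, and fits without HC6 or without each pool. Precision is limited by 4 arrays per condition. The number of deposited columns of per-sample values not used was 0.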

Additional observations from a re-analysis of the deposited data

Results flagged for a closer look

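Lats2 in HC4 replicate 1 stood apart from its group on the probe used for the gene. The pool had a level of 1.164, against 0.323 for the nearest and 0.282 for the farthest of the other 3 HC4 pools, and its gap to the nearest was 0.954 of the group's range, above Dixon's 95% critical value for 4 samples. It was the 1 group of 54 tested (9 members in 6 conditions) to pass that limit, and chance alone passes about 1 in 20. The other Lats2 probes read -0.55 (detected on 24 arrays) and -2.87 (on 14 arrays) in this pool. On each of them it was the lowest HC4 pool, so the high value rests on 1 probe. No cause was tested.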

How the results depend on the processing

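No member was called in any setting, and the smallest adjusted p of the members' named contrasts over the 16 or fewer settings other than leaving out a pool was 0.381 (Lats2 in HC4 with no filter on dim probes, difference 0.33). That Lats2 difference was 0.99 within slide 1, where HC4 is the single pool HC4 replicate 1, 0.015 within slide 2, 0.19 within slide 3 and 0.19 with the mean of the kept probes. Genes called over the whole table moved off 0 in few settings: 2 in HC2 in the authors' deposited table, 1 in HC5 with no filter on dim probes, 2 in HC4 with array weights, and 4 in HC5 and 2 in HC6 within slide 1, where each of these conditions has 1 pool, whose spread is assumed to be that of the others. Leaving out each pool in turn gave 0 to 1 calls by the F-test and in HC1 (1 without HC1 replicate 3), in HC2 (1 without HC2 replicate 1) and in HC5 (1 without HC5 replicate 1), 0 to 2 in HC4 (2 without HC4 replicate 4) and 0 to 4 over the pairs (4 without HC1 replicate 3 and 3 without HC4 replicate 4). The cause of these moves was not tested.

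The difference of HC5 from the other conditions changed sign for Lats1 in the authors' deposited table (0.0029), with array weights (0.038), within slide 1 (0.34) and within slide 2 (0.21), and ran between -0.20 and 0.076 without each pool. For Wwtr1 it was 0.12 within slide 2 and between -0.39 and 0.042 without each pool. For Amotl2 it was -0.0056 within slide 2, and Nf2 in HC2 gave 0.088 within slide 3. Each of these within-slide values rests on 1 pool of the named condition.

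Correlations between members passed 7 times by r in the main setting. They passed 1, 0 and 0 times within the 3 slides of 8 pools, 4 times with normexp and quantile normalization, 3 times in the authors' deposited table, 3 times without the 2 pools farthest from the median, and 3 to 8 times without each pool. The lowest count, 3, came without HC2 replicate 2 or 3, HC4 replicate 2 or HC5 replicate 4, and 4 came without replicate 1 of HC2, HC5 or HC6, HC1 or HC5 replicate 2, HC3 replicate 4 or HC4 replicate 4. Correlations with scores and brightness passed 4 times in the main setting, 0, 1 and 0 times within slides, 0 times in the pools below and 0 times in the pools above the widest gap of the score, and 4 to 5 times without each pool. Fewer pools lie behind the within-slide and within-set counts. The repeats for scores, for single pools and for the HC4 member count were chosen after seeing the data.

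Deviations of pools with the same replicate number gave r of both signs (between -0.324 and 0.338 over 60 pairs). The labels tie the number to nothing shared and not every pair was over 0.1, so it is treated as a name. Even so, 13 of 24 arrays correlated best with their own number, a hint from the data that was not tested. All replicate 1 pools lay on slide 1 and all replicate 4 pools on slide 3, so number and slide cannot be told apart for these. With the replicate block 0 genes were called by the F-test, as without it, and it changed no member's call.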
